A study of Homo sapiens with 8 samples.

Results

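The genes described here are 32 members of the unfolded protein response and the integrated stress response, taken by gene symbol from a table of 58735 genes measured in Caco-2 cells. All 32 symbols were found once each, and all 32 passed the filter on low counts that left 15084 genes for testing. Caco-2 is a colorectal carcinoma line used as a stand-in for intestinal epithelial cells. The labels call the cells wild type and stem cells and describe a PBS or an M2-exo treatment, where M2-exo are exosomes (small secreted vesicles) from THP-1 monocytic leukaemia cells in the state named M2, the usual name for alternatively activated macrophages. The untreated group, which by the labels' protocol is the PBS group, held 3 mRNA libraries and the M2-exo treated group 3. Dose and time are not given in the labels, nor is it stated that the libraries came from separate cultures. The p-values therefore reflect the spread among these 6 libraries alone, and that spread may be technical.

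The endoplasmic reticulum (ER) is where secreted and membrane proteins fold with the help of chaperones. When unfolded proteins build up, the membrane sensors ATF6, IRE1 (gene ERN1) and PERK (gene EIF2AK3) are activated: ATF6 and the IRE1-dependent factor XBP1 raise chaperone and degradation genes, and PERK phosphorylates eIF2α, which slows translation while favouring that of ATF4. Amino acid shortage, haem deficiency and viral RNA reach the same ATF4 branch through other kinases, which is why this branch is called the integrated stress response. ATF4 then drives genes of amino acid supply, together with feedback and growth arrest genes. Enterocytes make large amounts of secreted and brush border protein and depend on this system. The members fall into 14 ER chaperone and folding genes, 3 genes of ER-associated degradation, 6 sensors and transcription factors, 5 stress feedback genes and 4 ATF4-driven amino acid genes.

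Promoter stretches are shown to describe the members by something other than expression: matches to the elements known for the ATF6, XBP1 and ATF4 branches. The members were picked as genes of these branches, so matches in them are no independent finding. RefSeq promoter windows (250 bases before to 50 after the annotated start, build GRCh38.p14) were found for 30 of the 32 members, all but PDIA3 and SHMT2. The ER stress response element (ERSE), bound by ATF6 with the factor NF-Y, was searched on both strands as CCAAT, then 9 bases of any kind, then CCACG. It was found in 6 of 13 chaperone genes and in XBP1, and in 0.0769% of all 35093 windows. The related element ERSE-II, searched as ATTGG, 1 base of any kind and CCACG, was found in the chaperone genes HYOU1 and SDF2L1 and in HERPUD1, and in 0.0541% of all windows. The 250 bases before the start of HSPA5 (chr9:125241344-125241593, minus strand), with the ERSE match in capitals, read as follows, ahead of 59-base stretches in other chaperone genes and XBP1.
HSPA5: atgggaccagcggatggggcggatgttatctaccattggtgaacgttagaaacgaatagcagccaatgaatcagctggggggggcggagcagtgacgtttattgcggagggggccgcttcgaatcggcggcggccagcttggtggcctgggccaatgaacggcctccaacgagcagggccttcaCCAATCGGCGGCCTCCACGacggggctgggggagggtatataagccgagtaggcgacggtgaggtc
HSP90B1, chr12:103930196-103930254, plus strand: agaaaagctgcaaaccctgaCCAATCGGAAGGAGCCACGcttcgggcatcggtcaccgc
HSP90B1, chr12:103930301-103930359, plus strand: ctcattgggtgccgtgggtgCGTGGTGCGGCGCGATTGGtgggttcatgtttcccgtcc
CALR, chr19:12938364-12938422, plus strand: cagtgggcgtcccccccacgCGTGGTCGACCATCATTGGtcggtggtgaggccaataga
CANX, chr5:179698758-179698816, plus strand: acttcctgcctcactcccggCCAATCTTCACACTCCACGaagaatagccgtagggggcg
PDIA6, chr2:10812833-10812891, minus strand: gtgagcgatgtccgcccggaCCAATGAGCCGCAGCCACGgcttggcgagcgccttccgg
CRELD2, chr22:49918534-49918592, plus strand: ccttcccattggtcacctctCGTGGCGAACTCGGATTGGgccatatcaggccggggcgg
XBP1, chr22:28800583-28800641, minus strand: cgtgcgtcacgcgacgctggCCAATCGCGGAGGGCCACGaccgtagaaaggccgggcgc

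Each stretch is written on the strand of its gene, so a match on the other strand (in CALR, CRELD2 and the second of HSP90B1) reads as the reverse complement. HSP90B1 held 2 matches, and the CANX match lay at different distances from its several annotated starts. The next stretches show ERSE-II in capitals.
HYOU1, chr11:119057254-119057304, minus strand: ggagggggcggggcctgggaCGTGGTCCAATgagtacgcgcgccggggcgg
SDF2L1, chr22:21642094-21642144, plus strand: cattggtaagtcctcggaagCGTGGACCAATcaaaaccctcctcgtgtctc
HERPUD1, chr16:56932005-56932055, plus strand: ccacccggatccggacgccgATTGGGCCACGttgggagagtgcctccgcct

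ATF4 binds with C/EBP partners to a composite element, whose core was searched as TGATGNAA on both strands. It was found in ASNS (1 of 3 amino acid genes with a window), CHAC1 and HERPUD1, and in none of 13 chaperone genes. Of all windows 3.62% held it, and of all genes 4.46%, so it is a far more common string than ERSE. With so few genes these counts do not separate chaperone from amino acid genes. The stretches with this core in capitals are these.
ASNS, chr7:97872449-97872496, minus strand: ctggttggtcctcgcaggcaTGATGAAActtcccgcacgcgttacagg
CHAC1, chr15:40953242-40953289, plus strand: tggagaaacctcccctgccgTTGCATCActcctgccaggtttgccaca
HERPUD1, chr16:56931946-56931993, plus strand: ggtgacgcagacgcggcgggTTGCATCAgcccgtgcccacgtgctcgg

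The core TGACGTGG of the unfolded protein response element, searched on both strands, was found in HYOU1 alone among the members, where it overlaps 1 of the 2 ERSE-II matches, and in 0.729% of all windows. A match describes letters and not a bound site, and a window without one says nothing about the factor.

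**Figure D1:**
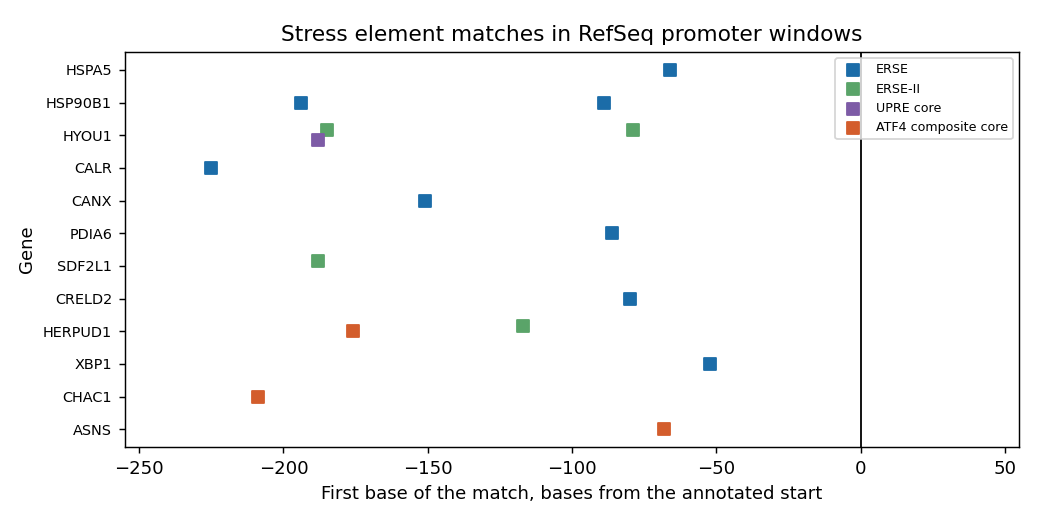
Positions of the matches to the 4 elements in the promoter windows of the 12 members that hold one, in bases from the annotated start (0); each square is the first base of a match, and CANX is drawn for 1 of its starts. ERSE (blue) is seen in chaperone genes and XBP1, and the ATF4 composite core (orange) in HERPUD1, CHAC1 and ASNS.

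Of the 14 chaperone genes, 7 were among the most abundant mRNAs of the table, and the other 7 stood lower. Levels between genes are compared as FPKM (counts scaled to exon length and library size), which the authors deposited, and levels between libraries as CPM (counts scaled to library size with TMM factors). CALR, the lectin chaperone calreticulin, lay at 269 to 357 FPKM over the 6 libraries, with a mean of 322. It stood above HSP90B1, the ER form of HSP90, in all 6 libraries, and the ranges of the pair did not overlap. HSP90B1 had a mean of 222 FPKM, HSPA5, the HSP70 of the ER also called BiP, 216, and CANX, the membrane-bound lectin chaperone calnexin, 205. HSP90B1 and HSPA5 exchanged places between libraries (HSP90B1 was higher in 4 of 6), whereas HSPA5 exceeded CANX in 6 of 6 although their ranges overlapped. The disulfide isomerase genes followed, PDIA4 at a mean of 153 FPKM, PDIA3 at 126 and PDIA6 at 125. More than 98% of the tested genes had a lower mean FPKM than each of these 7.

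The other chaperone genes stood far lower per length. HYOU1, a nucleotide exchange factor for BiP, had a mean of 52.1 FPKM, and SDF2L1, a partner of BiP and DNAJB11, 46.4. The J-domain co-chaperones DNAJB11, DNAJC3 and DNAJB9 had means of 17.2, 13.6 and 11.8 FPKM. MANF, a small ER protein that binds BiP, had 14.6, and CRELD2, a disulfide isomerase-like protein that is secreted under stress, 6.15, above 57.2% of the tested genes. Among the transcription factors, ATF4 (112 FPKM) and XBP1 (79.4) were abundant, while the sensors EIF2AK3 (8.83), ATF6 (5.03) and ERN1 (1.55) were not. DDIT3, which encodes the growth arrest factor CHOP, had 9.09. The amino acid genes SHMT2, PSAT1 and PHGDH had 43.0, 39.3 and 25.4 FPKM. Of the 31 neighbouring pairs in the order of mean FPKM, 9 kept their order in all 6 libraries and 5 had ranges that did not overlap, so most neighbours did not differ beyond their spread.

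At the foot of the order stood ASNS, the asparagine synthetase gene and a classical ATF4 target, at 0.396 FPKM with 26 to 43 counts a library. Only 9.86% of the tested genes had a lower mean. In the gene table another transcript on the same strand, AC079781.5, spans 100% of the ASNS locus. The sources used here do not say how the authors counted reads that fall in both, so the ASNS level is uncertain. Likewise AC022506.1 spans 53.8% of DDIT3 on its strand, which also overlaps MARS on the other strand, and AC068631.2 spans 20.7% of DNAJB11. In all, 18 members overlap another annotated gene and 10 overlap one on the same strand. Outside ASNS, DDIT3, CANX (30.1%) and DNAJB11, any same-strand gene spans less than 10% of the member. The spans of genes on the other strand were not measured.

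**Figure D2:**
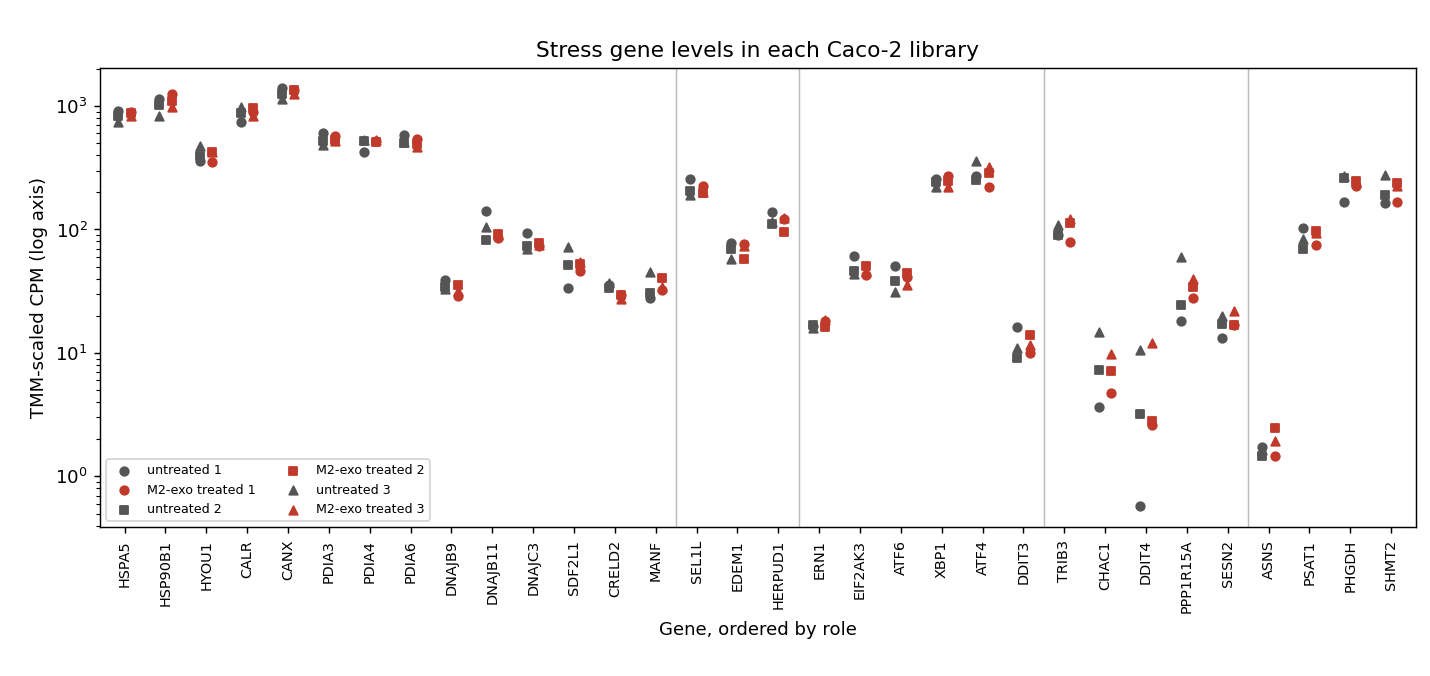
TMM-scaled CPM of each member (log axis) in the 3 untreated (grey) and 3 M2-exo treated (red) libraries, grouped by role from chaperones at the left to amino acid genes at the right. The grey and red ranges overlap for every gene but CRELD2, and the points spread most for CHAC1, DDIT4 and PPP1R15A.

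The first question was whether M2-exo changed any of these genes. None was called: edgeR's quasi-likelihood test with Benjamini-Hochberg adjustment called 0 of 32 members, as it called 0% of the 15084 tested genes, and each member had an adjusted p of 0.9999. No member reached an unadjusted p under 0.05 in edgeR or in DESeq2. Over all genes tested, 111 of 15084 did in edgeR and 124 of 29413 in DESeq2. With shares this small, 0 of 32 members says little about these genes. Treated values were above untreated ones in 17 members and below in 15, with a median log2 fold change (treated minus untreated) of 0.013 against -0.0099 over all tested genes. The 95% interval lay within a 2-fold change in both directions for 29 of 32 members (75.8% of all tested genes) and within 1.5-fold for 23 (45.2% of all tested genes). The exceptions to the 2-fold limit were CHAC1, DDIT4 and ASNS.

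Among the chaperone genes, HSPA5 (ENSG00000044574, chromosome 9 from 125234853 to 125241330) is the usual reporter of ER stress. The untreated libraries had 912, 836 and 746 CPM of it, in order of replicate number, and the treated libraries 898, 884 and 830.1. All treated values lay inside the untreated range, which ran from untreated 3 to untreated 1. The untreated mean was 831 ± 82.7 CPM and the treated mean 871 ± 36.1 (SD, 3 libraries each). The log2 fold change was 0.07, with a 95% interval from -0.22 to 0.36. HSP90B1 had 1137, 1018 and 824 CPM in untreated and 1249, 1103 and 974 in treated libraries. This was the highest fold change of the group (log2 0.16, SE 0.16), with overlapping groups.

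CRELD2 (ENSG00000184164, chromosome 22 from 49918167 to 49927540) gave the lowest fold change of all members. Its CPM was 35.8, 33.6 and 37.0 in untreated and 29.3, 29.4 and 27.1 in treated libraries, so each treated value lay under each untreated one. The log2 fold change was -0.31 (SE 0.15, 95% interval -0.65 to 0.03, edgeR adjusted p = 0.9999, unadjusted 0.0697). It was the one member of 32 with all treated values below the untreated ones, where 2.3% of all tested genes had this pattern. None of the 32 had all treated values above, where 1.65% of tested genes did. In all 12 alternative analyses its log2 fold change stayed between -0.33 and -0.26. DNAJB11 was next, at 140.1, 82.6 and 104 CPM in untreated and 85.8, 92.2 and 91.0 in treated libraries (log2 -0.28, SE 0.19). Here untreated 1 stood apart at the high end, and the other 2 untreated values lay on either side of the treated ones.

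The lectin chaperones had narrow ranges. CANX had 1387, 1249 and 1131 CPM in untreated and 1357, 1358 and 1248 in treated libraries (log2 0.07, SE 0.13), and CALR 740.4, 880.0 and 982 against 902, 958 and 831 (log2 0.05, SE 0.14). For CANX untreated 3 was lowest, for CALR untreated 1, so the same libraries took opposite ends in these functionally paired genes. The disulfide isomerase genes PDIA3, PDIA4 and PDIA6 gave 0.02, 0.08 and -0.08, HYOU1 -0.04, SDF2L1 -0.03 and MANF 0.04. DNAJB9, which recruits BiP to IRE1, gave -0.14, and DNAJC3, a co-chaperone also known as an inhibitor of PERK, -0.06. As a group, 7 of 14 chaperone genes lay above 0 and 7 below, with a median of -0.0090. The 8 with an ERSE or ERSE-II match had a median of 0.0074 (4 above, 4 below) and the 5 without one -0.063 (2 above, 3 below).

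In ER-associated degradation, SEL1L, the adaptor of the HRD1 ubiquitin ligase, had 255, 207 and 189 CPM in untreated and 223, 198 and 202 in treated libraries. EDEM1, which helps pick misfolded glycoproteins for degradation, had 77.7, 69.4 and 58.0 against 76.8, 57.2 and 73.7. HERPUD1, an ER membrane protein of this machinery, had 139.7, 112 and 115 against 122, 95.7 and 124. In each of the 3 genes untreated 1 was highest and the groups overlapped. Their log2 fold changes were -0.06, 0.02 and -0.10.

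The sensors and factors showed the same picture. ERN1 was the steadiest member, at 16.5, 16.7 and 15.9 CPM in untreated and 18.3, 16.1 and 18.5 in treated libraries (log2 0.11, SE 0.17). XBP1 had 256, 240.2 and 219 against 270.1, 248 and 221 (log2 0.05, SE 0.14). These counts sum the spliced and unspliced XBP1 mRNA, so they say nothing of IRE1 activity. ATF4 had 269, 249.8 and 361 CPM against 223, 287 and 322 (log2 -0.08, SE 0.19), and its control is mainly at translation, which mRNA counts do not show. EIF2AK3 gave -0.12, ATF6 0.01 and DDIT3 -0.03. DDIT3 had 16.2, 9.17 and 11.03 CPM in untreated and 10.02, 13.95 and 11.5 in treated libraries, and its highest and lowest values both came from untreated libraries.

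**Figure D3:**
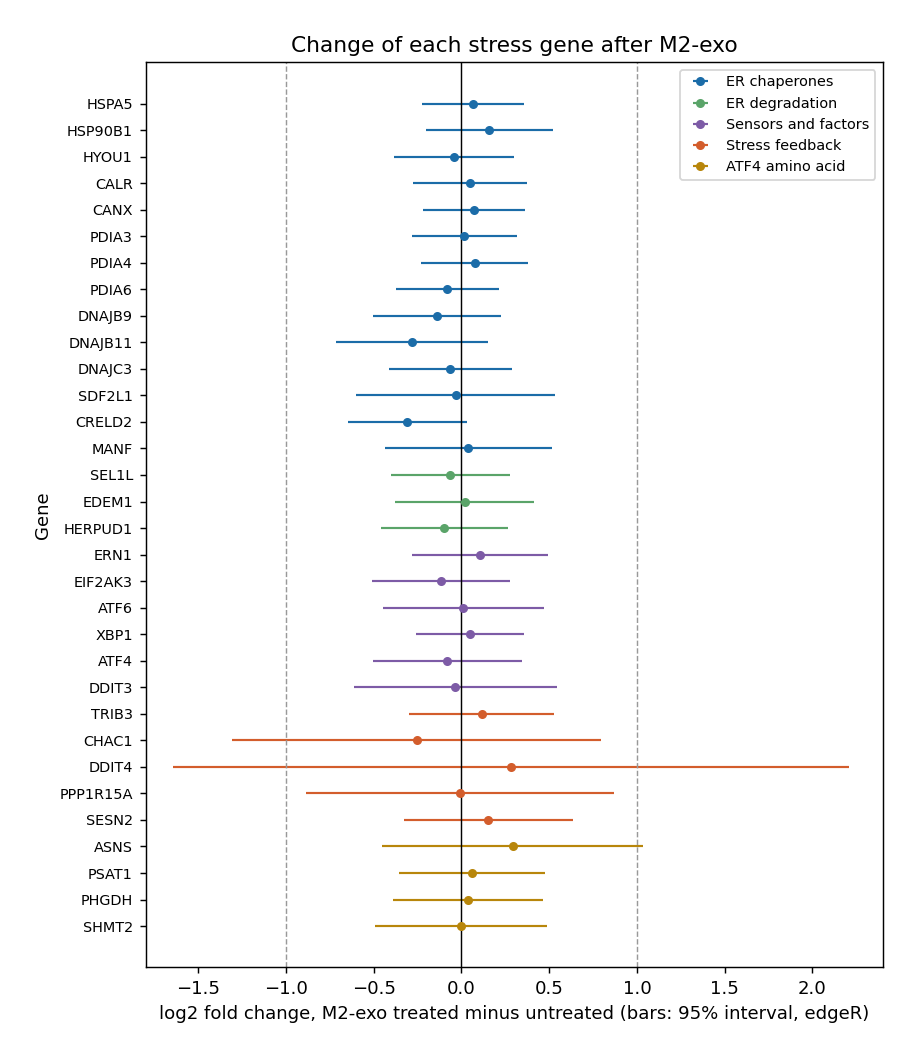
Fitted log2 fold change (treated minus untreated) of each member with its 95% interval from edgeR, coloured by role; dashed lines mark a 2-fold change in each direction. Every interval includes 0, and only those of CHAC1, DDIT4 and ASNS pass a dashed line.

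The 5 stress feedback genes differed more between libraries of 1 group than between the groups. PPP1R15A, the eIF2α phosphatase subunit GADD34 that ends the translational arrest, had 18.0, 24.6 and 59.5 CPM in untreated and 27.8, 34.2 and 39.6 in treated libraries. The treated values thus lay inside the untreated range, and the fold change was near 0 (log2 -0.0077, SE 0.39). CHAC1, a glutathione-degrading enzyme induced through ATF4, had 3.62, 7.33 and 14.9 CPM against 4.73, 7.12 and 9.87 (log2 -0.25, SE 0.47). DDIT4, also called REDD1, an inhibitor of the growth kinase complex mTORC1, had 0.572, 3.19 and 10.5 CPM against 2.59, 2.81 and 12.04 (log2 0.28, SE 0.86). Here untreated 3 and treated 3 stood apart at the high end and untreated 1, with 9 counts, at the low end. The highest DDIT4 value was 21.1 times the lowest, against 4.12 times for CHAC1 and 3.31 times for PPP1R15A.

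The remaining feedback genes were steadier. SESN2, a leucine sensor that also restrains mTORC1, had 13.3, 17.1 and 19.8 CPM in untreated and 16.8, 16.99 and 21.96 in treated libraries (log2 0.15, SE 0.21). TRIB3, a pseudokinase that dampens ATF4 and CHOP activity, had 90.8, 89.6 and 108 against 79.1, 112 and 121 (log2 0.12, SE 0.18). As a group 3 of 5 lay above 0, with a median of 0.12. The 95% interval of DDIT4 ran from -1.65 to 2.21, so at this depth and spread a 2-fold change in either direction was not excluded.

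The 4 amino acid genes are targets through which ATF4 restores amino acid supply. PHGDH, the first enzyme of serine synthesis, had 166, 259 and 274 CPM in untreated and 225, 249 and 242 in treated libraries (log2 0.03, SE 0.19). PSAT1, the next enzyme of that pathway, had 102, 69.4 and 83.3 against 74.3, 97.8 and 93.9 (log2 0.06, SE 0.18). SHMT2, which turns serine into glycine in mitochondria, had 162, 191 and 275 against 166, 239 and 224 (log2 -0.00078, SE 0.22). ASNS had 1.72, 1.45 and 1.63 against 1.46, 2.47 and 1.95 (log2 0.29, SE 0.33), on the uncertain counts named above. In all 4 genes the groups overlapped. Untreated 1 was lowest for PHGDH and SHMT2 and highest for PSAT1, so the 2 enzymes of serine synthesis took opposite ends in this library.

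Set against each other, chaperone and amino acid genes did not separate. The median log2 fold change was -0.0090 for the 14 chaperone genes and 0.047 for the 4 amino acid genes, a difference of -0.056. In alternatives chosen after seeing the data, without ASNS the amino acid median was 0.035 and the difference -0.043, and with the 5 feedback genes added they were 0.060 and -0.069. Leaving out 1 library at a time moved the amino acid median to 0.22 without untreated 3, 0.18 without treated 1 and -0.0058 without treated 2, and to between 0.037 and 0.047 without each of the others. It moved the difference between -0.20 (without untreated 3) and -0.018 (without treated 3). Within each library, the mean log2 CPM of chaperone genes exceeded that of amino acid genes by 2.26, 2.18 and 2.01 in the untreated libraries and by 2.27, 1.88 and 1.93 in the treated ones. Treated 1 held the highest value and treated 2 the lowest, so the untreated values lay inside the treated range. The means were 2.15 ± 0.13 and 2.03 ± 0.21 (SD, n = 3 each), and their difference of -0.12 was smaller than either SD. Much of this gap in level came from ASNS, whose counts are uncertain. Without ASNS the gap was 0.70, 0.53 and 0.32 in untreated libraries and 0.65, 0.35 and 0.33 in treated ones.

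As a share of all counts, the chaperone genes took 0.657%, 0.638% and 0.586% in untreated and 0.682%, 0.647% and 0.606% in treated libraries. The amino acid genes took 0.0436%, 0.0534% and 0.0615% against 0.0477%, 0.0578% and 0.0554%. The ratio of the shares ran from 9.53 in untreated 3 to 15.1 in untreated 1, and all 3 treated libraries lay inside this range. For the chaperone genes the highest share was that of treated 1 and the lowest that of untreated 3, and for the amino acid genes both extremes were untreated.

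**Figure D4:**
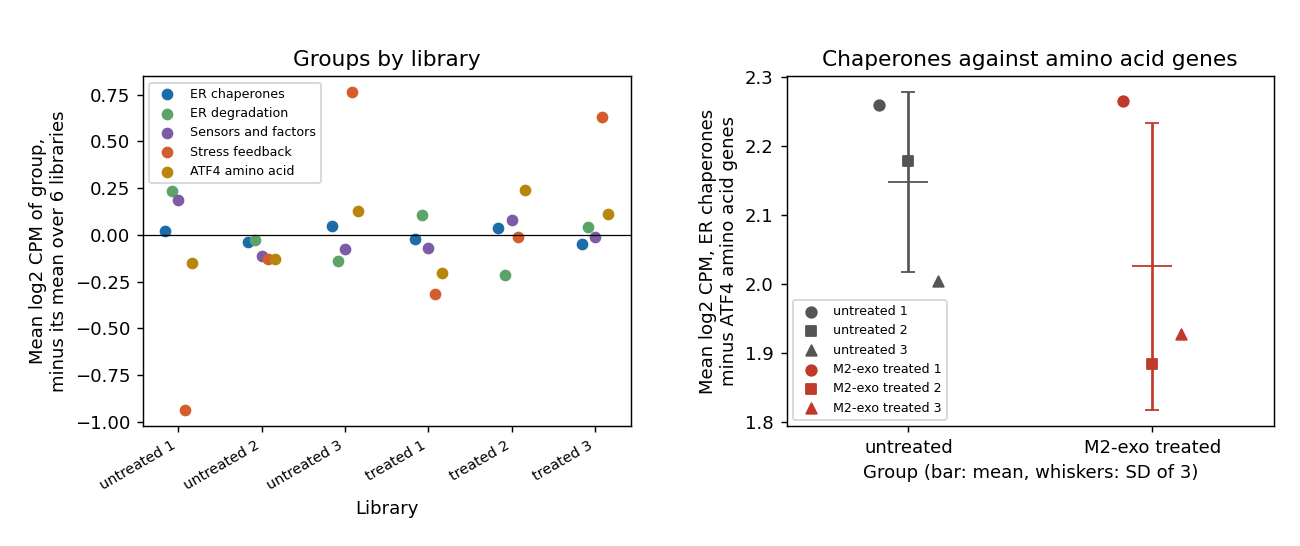
Left, the mean log2 CPM of each role group in each library, minus its mean over the 6 libraries; right, the mean log2 CPM of chaperone genes minus that of amino acid genes in each library, with group means and SDs of 3. The stress feedback genes (orange) move most, from untreated 1 to untreated 3, while the chaperone genes (blue) stay near 0 and the treated and untreated differences overlap.

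The spread between libraries differed between the role groups. The median SD of log2 CPM between untreated libraries was 0.20 for chaperone genes, 0.33 for amino acid genes and 0.89 for feedback genes, against 0.30 over all tested genes. Between treated libraries it was 0.087, 0.25 and 0.33, against 0.19 over all. In 13 of 14 chaperone genes and 25 of 32 members the SD was larger in untreated than in treated libraries, as it was for 72.0% of all tested genes. The exception among chaperones was DNAJB9. The highest library was less than 1.5 times the lowest for 10 of 14 chaperone genes and at least 2 times the lowest for 4 members: SDF2L1, CHAC1, DDIT4 and PPP1R15A.

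Much of this spread lay between untreated 1 and untreated 3. These libraries were the 2 extremes of the 6 for 14 of 32 members, and for 31.9% of all tested genes. All 5 feedback genes were higher in untreated 3 than in untreated 1, by a median log2 of 1.72, whereas all 3 degradation genes were lower there, by a median of -0.42. The chaperone genes were divided. HSPA5, HSP90B1, CANX, PDIA3, PDIA6, DNAJB9, DNAJB11 and DNAJC3 were lower in untreated 3. CALR, HYOU1, PDIA4, SDF2L1, CRELD2 and MANF were higher there, SDF2L1 the most (33.3 against 71.5 CPM). Untreated 1 had the smallest library total, 15608937 counts against 17408745 to 18324599 in the others, and the smallest share of counts on mitochondrial genes, 4.16% against 7.01% to 8.11%. The part of these differences in the spread of the stress genes was not tested.

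**Figure D5:**
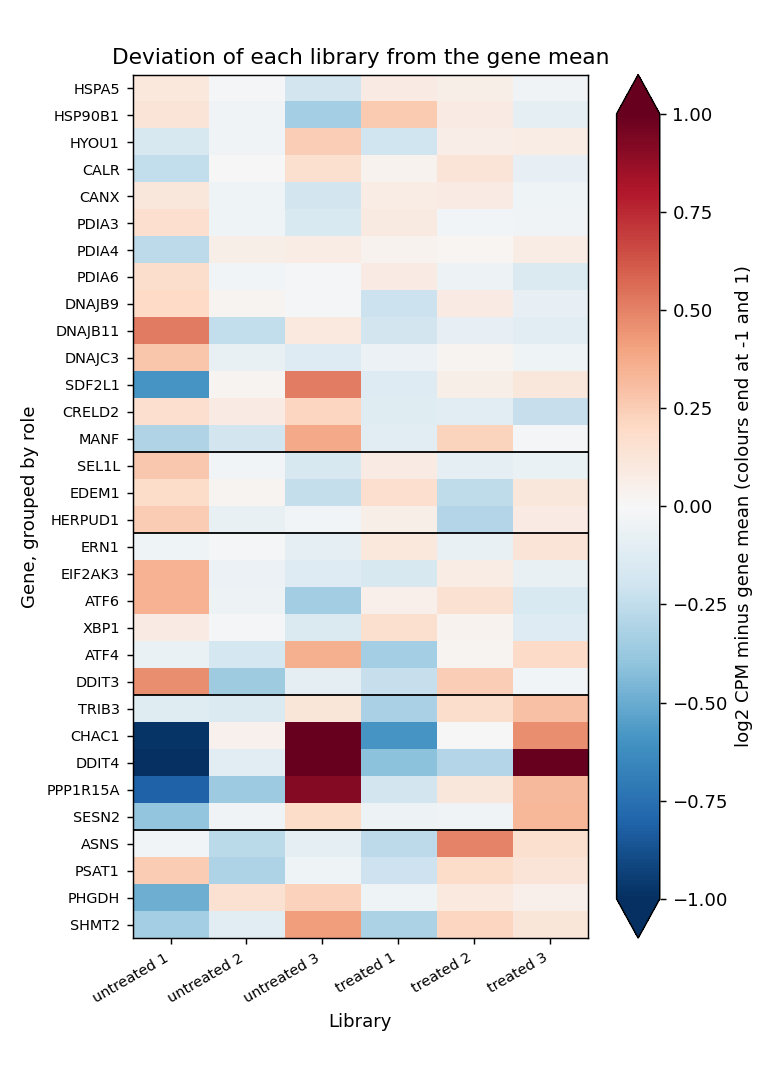
Log2 CPM of each member in each library minus the mean of that gene over the 6 libraries (red higher, blue lower, colours end at 1 and -1), with black lines between role groups. Untreated 1 and untreated 3 carry most of the strong colours, in opposite directions, above all in CHAC1, DDIT4 and PPP1R15A.

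Other genes of the same pathways, from lists drawn up by function with earlier results of these data known, held no called gene either. Of 15 further ER folding genes 7 lay above 0 and 8 below (median log2 -0.0045). At the ends stood TXNDC5 (0.45, SE 0.41), a disulfide isomerase family gene at 5.72 ± 3.36 untreated and 7.84 ± 2.00 CPM treated, whose locus the readthrough gene BLOC1S5-TXNDC5 nearly covers on the same strand, and DNAJC10 (0.09), with FKBP2 (-0.53, SE 0.77) and PDIA5 (-0.20, SE 0.15) below. Of 22 genes of degradation and translocation 8 lay above and 14 below (median -0.030), with SYVN1, the HRD1 ligase itself, at 0.13 and ERLEC1 at 0.10, and SELENOS at -0.18. DERL3 gave -0.58 (SE 0.45) at under 1 CPM in every library. Of 14 further sensors and regulators 7 lay on each side (median 0.00010), from CREB3L1 (0.12) and ATF6B (0.11) to TRAF2 (-0.04) and MBTPS1, a protease that cleaves ATF6 (-0.08).

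Of 24 further ATF4 targets 22 had enough counts, with 8 above and 14 below 0 (median -0.028). CEBPB, a factor that pairs with ATF4, was highest at 36.1 ± 22.6 untreated and 45.9 ± 30.1 CPM treated (SD, 3 libraries each; log2 0.34, SE 0.52), followed by the glutamine transporter SLC1A5 (0.17), and CBS (-0.30) and the translation repressor EIF4EBP1 (-0.20) were lowest. The 12 aminoacyl-tRNA synthetase genes had 7 above and 5 below (median 0.024), all with intervals within 1.5-fold. Among them IARS (0.10) and WARS (0.09) were highest and AARS (-0.17) and YARS (-0.11) lowest.

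Markers were read to see which cells the libraries held. Of 10 epithelial markers 9 exceeded 1 CPM in every library, with LGALS4 near 0, and their summed level was 8718 to 12787 CPM. Of 15 macrophage markers 10 were under 1 CPM in every library, with CD68, CD33 and TYROBP at 0 in all 6. The transcript AC016876.2 spans 96.6% of the CD68 locus on the same strand, so its count carries the same doubt as that of ASNS. CD14 (5.97 to 8.84 CPM), CSF1R, LYZ and AIF1 exceeded 1 CPM in every library, and FCER1G in 3 of 6. The summed level of all 15 was 16.9 to 21.5 CPM in untreated and 13.4 to 20.7 in treated libraries. Of 8 fibroblast markers 3 were under 1 CPM throughout, and the summed level was 69.6 to 80.7 CPM in untreated and 70.7 to 94.5 in treated libraries. In bulk libraries, fewer cells with a transcript and less of it per cell cannot be told apart.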

How the data were processed

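Whole-number counts per gene and FPKM values were deposited by the authors. Per the submitters' processing notes, CASAVA, HISAT2 and featureCounts were used with GRCh38. Their versions, the strand setting and the handling of shared reads were not stated. The deposited FPKM values were used for levels between genes and for 1 alternative. A total of 6 table columns match no sample and were not used, and the exosome miRNA libraries were not analysed here.

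Counts were tested across all genes with edgeR 4.0.16 in R 4.3.3 (filterByExpr, TMM, quasi-likelihood F test, 2-sided, Benjamini-Hochberg at 0.05), and the script was tested on simulated data. Standard errors are the size of the log2 fold change over the square root of F. Log2 CPM used a prior count of 2. Totals were 15608937 to 18324599 counts. Alternatives were RLE factors, total counts, no filter, DESeq2 1.42.0, limma 3.58.1 on log2(FPKM + 1), a block for replicate number and fits leaving out 1 library. The members, role groups and lists were chosen with earlier results of these data known. All 32 members are named, and of each other list the 2 highest and 2 lowest fold changes. Promoters are RefSeq windows, with identical windows of a gene counted once.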

Additional observations from a re-analysis of the deposited data

How the results depend on the processing

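No member was called under any of the 12 alternatives; the smallest adjusted p among members was 0.957, by edgeR without untreated 1. Over all genes, edgeR called 6 without the filter, and 0 to 1 when a library was left out: BOLA2B, named after its values were seen, was called without treated 2. At an unadjusted p under 0.05, CRELD2 appeared on log2(FPKM + 1) and PPP1R15A without untreated 3, and no member did in the other 10. Where these members appeared, 173 of 15084 and 349 of 15438 tested genes did so. The chaperone median ran from -0.059 (without treated 2) to 0.057 (without treated 1). Whether the replicate numbers pair the libraries was not settled. Deviations of same-numbered libraries correlated at 0.28, -0.065 and 0.48. The libraries numbered 1 and 3 correlated best with their own number, and untreated 2 and treated 2 did not. With the replicate block edgeR called 0 genes, the chaperone minus amino acid difference was -0.044, and 3 members changed sign: SDF2L1 to 0.027, PPP1R15A to 0.16 and SHMT2 to 0.017. On log2(FPKM + 1) the same genes changed to 0.033, 0.15 and 0.021; without the filter PPP1R15A went to 0.0083 and SHMT2 to 0.016, and SHMT2 went to 0.0039 with RLE factors and 0.0044 with DESeq2. With 1 library left out, 21 members changed sign at least once. Their ranges were -0.12 to 0.094 for HYOU1, -0.045 to 0.16 for CALR, -0.038 to 0.12 for PDIA3, -0.017 to 0.15 for PDIA4, -0.12 to 0.082 for DNAJC3, -0.26 to 0.27 for SDF2L1 and -0.079 to 0.29 for MANF. They were -0.14 to 0.076 for SEL1L, -0.073 to 0.14 for EDEM1, -0.15 to 0.017 for HERPUD1, -0.19 to 0.052 for EIF2AK3, -0.12 to 0.22 for ATF6, -0.0046 to 0.13 for XBP1, -0.18 to 0.11 for ATF4 and -0.18 to 0.24 for DDIT3. They were -0.61 to 0.41 for CHAC1, -0.81 to 1.61 for DDIT4, -0.30 to 0.68 for PPP1R15A, -0.045 to 0.22 for PSAT1, -0.15 to 0.18 for PHGDH and -0.15 to 0.26 for SHMT2. The 11 others kept their sign in all 12. DDIT4, CHAC1 and ASNS had too few counts or too much spread to exclude a 2-fold change.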
